A study of Mus musculus with 9 samples.

Results

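Carbonic anhydrases are zinc enzymes that interconvert carbon dioxide and bicarbonate, and they set the pH inside and around cells. Some members are cytosolic, some are anchored at the cell surface with the active site outside, and a few related proteins have lost the catalytic activity but kept the fold. In the retina, cytosolic carbonic anhydrase II is known from Müller glia, and surface enzymes are known from Müller glia and the pigment epithelium. Carbonic anhydrase IX is a textbook target of the hypoxia-inducible factors (HIFs).

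The genes described here are the 10 genes named Car2, Car3, Car4, Car8, Car9, Car10, Car11, Car12, Car13, and Car14, chosen by symbol from the 54532 genes of the count table. All 10 passed the filter on low counts, which left 17540 genes. RNA of whole neurosensory retina was sequenced in bulk from 9 wild type C57BL/6 mice aged P17, which made up 3 groups of 3. In oxygen-induced retinopathy (OIR), pups lose central retinal vessels in hyperoxia and are moved to room air at P12, which leaves the retina ischemic and promotes neovascularization (NV). Control mice (numbers 1, 6, and 7 in their labels) had room air throughout and carry a DMSO label. OIR mice (3, 5, and 6) had an intraocular injection of vehicle at P12. Treated OIR mice (2, 5, and 10) were injected at P12 with the small-molecule inhibitor of HIF-1 and HIF-2 under study, given as 70 ng in one label and as a concentration of 70 ng/µl with no volume in another, so the dose is uncertain. The questions were what ischemia changed in the retina and what the inhibitor changed in the ischemic retina.

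Total counts ranged from 16028731 to 27213184 per mouse. Rod markers gave summed levels of at least 34011 CPM in every mouse, which fits the label of the tissue. One library stood apart, since lens crystallins took 15.8% of all reads counted in treated OIR mouse 2 but no more than 0.184% elsewhere. Treated OIR mouse 2 and OIR mouse 6 also had the lowest summed ganglion cell and amacrine cell markers of the 9 mice. Both sexes were present in each group by Xist and Y-linked counts, with 1, 1, and 2 females in control, OIR, and treated OIR mice. Nothing says how the mice are related by litter, and p values measure only the spread among these mice.

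No carbonic anhydrase gene passed the test in any of the 3 comparisons. To be called a differentially expressed gene (DEG), a gene needed a p below 0.05 in edgeR's quasi-likelihood test after Benjamini-Hochberg adjustment and an absolute log2 fold change above 1. In OIR against control, 0 of the 10 genes were DEGs, where 0.302% of all genes tested were. Treated OIR against control gave 0 of the 10, beside 0.0171% of all genes, and in treated OIR against OIR 0 of the 10 were, beside 0% of all genes. At an unadjusted p below 0.05 in edgeR there were 1, 2, and 0 of the 10 genes in these comparisons, against 23.8%, 18.6%, and 4.69% of all genes. Car11 came nearest to the threshold, with an adjusted p of 0.0605 by edgeR in OIR against control. DESeq2 and limma-voom, 2 other tools, did call Car11 lower in OIR. So did edgeR on the 2 groups alone, with no filter on low counts, and without treated OIR mouse 2. DESeq2 on the 2 groups alone also called Car9 higher in OIR. These calls are described with each gene.

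The 10 genes as a list did not lean one way. In OIR against control their median log2 fold change was -0.21, with 4 genes above 0 and 6 below (Car8, at 0.02, changed sign in some settings), beside a median of 0.03 over all genes tested. The median was -0.23 in treated OIR against control and 0.09 in treated OIR against OIR, beside 0.01 over all genes in each. Treated OIR and OIR mice were each set against the same 3 control mice, so these comparisons share values.

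**Figure D1:**
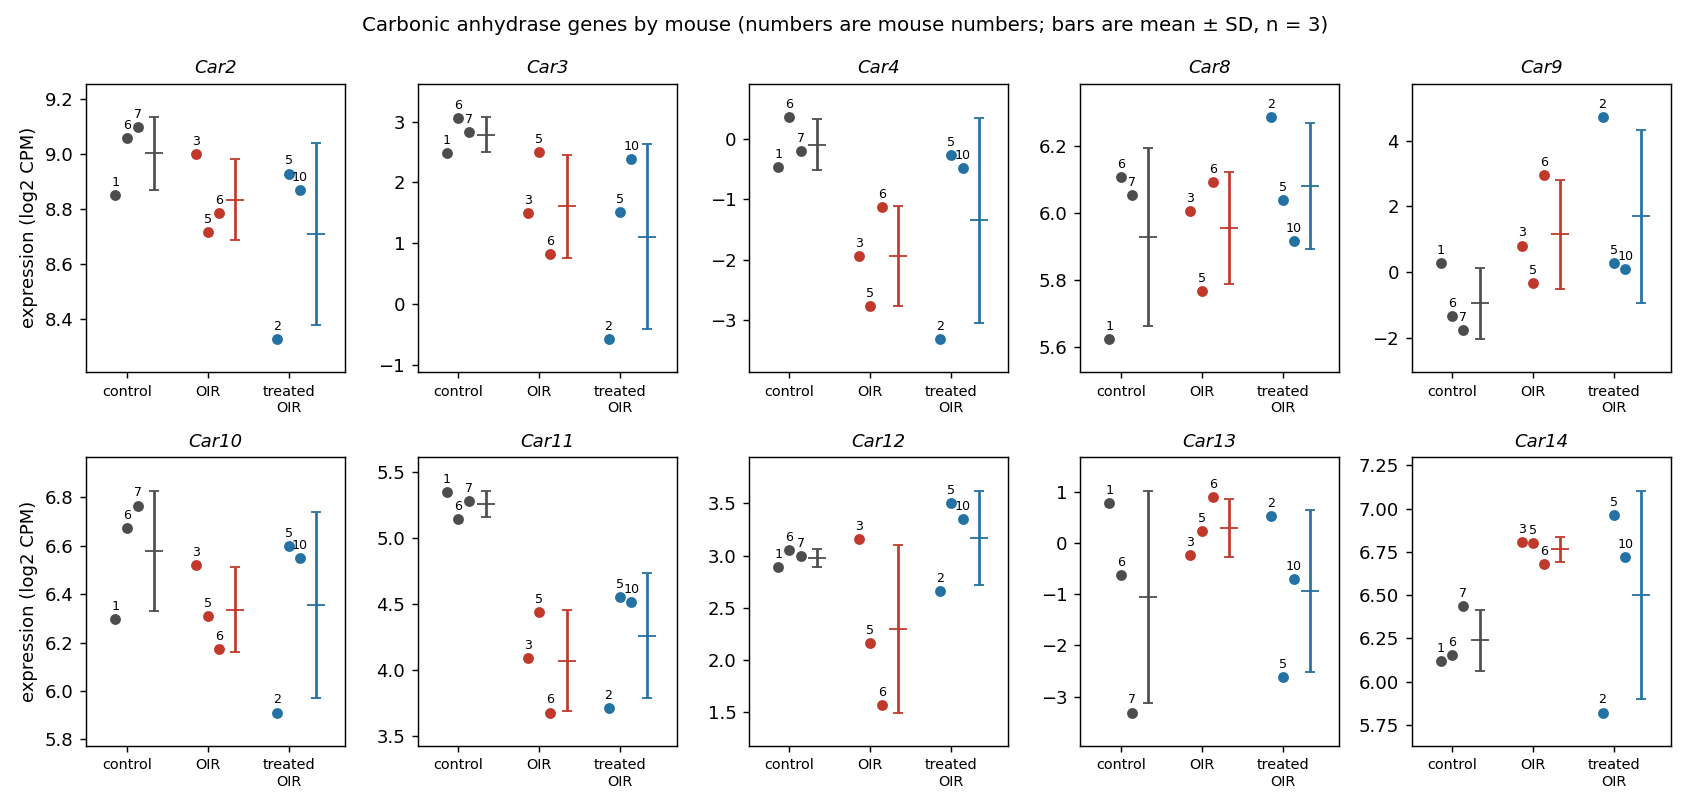
Expression of the 10 carbonic anhydrase genes by mouse, as log2 CPM, with 1 point per mouse labelled by its number and bars for the mean ± SD of 3 mice. Each panel has its own vertical scale. Car11 was at 5.15 or above in the control mice and at 4.56 or below in the other 6, while Car9 reached 4.72 in treated OIR mouse 2 and 2.95 in OIR mouse 6.

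The promoters of 3 members are shown because Car9 had the largest log2 fold change, Car14 was the member that was higher in every OIR mouse than in every control mouse, and Car11 was the member nearest to the threshold. Each line gives the 250 bases before a RefSeq transcript start on the strand of the gene, on build GRCm38.p6. These are chr4:43506776-43507025 on the plus strand for Car9, chr3:95904686-95904935 on the minus strand for Car14, and chr7:45699554-45699803 on the plus strand for Car11. Capitals mark ACGTG or its reverse complement CACGT, a form of the core letters of the element that HIFs are known to bind. The core is also known with G as its first letter (GCGTG or CACGC), a form that was neither searched nor marked.
Car9: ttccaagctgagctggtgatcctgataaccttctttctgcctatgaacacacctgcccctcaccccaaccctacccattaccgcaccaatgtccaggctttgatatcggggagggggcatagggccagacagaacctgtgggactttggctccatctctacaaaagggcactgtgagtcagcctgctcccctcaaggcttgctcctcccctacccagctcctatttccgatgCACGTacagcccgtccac
Car14: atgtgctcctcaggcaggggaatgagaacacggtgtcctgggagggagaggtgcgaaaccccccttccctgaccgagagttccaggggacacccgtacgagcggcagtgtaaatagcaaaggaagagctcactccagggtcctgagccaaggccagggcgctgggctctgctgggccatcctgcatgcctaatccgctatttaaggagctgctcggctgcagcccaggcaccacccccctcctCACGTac
Car11: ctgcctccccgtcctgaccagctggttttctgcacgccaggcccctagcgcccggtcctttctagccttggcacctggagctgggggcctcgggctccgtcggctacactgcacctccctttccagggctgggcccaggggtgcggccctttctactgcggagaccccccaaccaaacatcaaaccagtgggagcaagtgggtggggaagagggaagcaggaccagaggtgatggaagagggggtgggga

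The marked letters begin 18 bases before the start in Car9 and 7 bases before it in Car14, and they are not in the Car11 window. That window does hold CACGC, the form that was not searched, so a HIF core is not shown to be absent there. Over windows of 250 bases before to 50 bases after the start, 6 of the 10 genes had a RefSeq promoter, with 8 promoters in all. Of these 8, 4 held the letters on either strand, which were those of Car4, Car9, Car14, and 1 of the 2 Car10 promoters. Of all 32851 RefSeq promoters, 19.6% held them. A match describes the letters alone.

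Levels of different genes were compared per length, as FPKM from the deposited gene lengths. Car2 had the highest level in all 9 mice, at 212 ± 19.1 FPKM in control, 189 ± 19.7 FPKM in OIR, and 175 ± 37.4 FPKM in treated OIR (SD, n = 3). It made up 64.9% to 72.1% of the summed FPKM of the 10 genes. Car14 came next in each group, with 29.8 ± 3.70 FPKM in control mice. In control, Car11 was the third at 19.9 ± 1.39 FPKM, and its lowest mouse lay above the highest mouse of Car8, at 15.97 ± 2.77 FPKM, and of Car10, at 15.2 ± 2.50 FPKM. Car8 and Car10 overlapped each other there. In OIR mice this order differed, since Car11, at 8.89 ± 2.32 FPKM, lay below Car8 and Car10 with no shared range.

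The other 5 genes were low. In control mice Car3 was at 2.40 ± 0.48 FPKM and Car12 at 1.03 ± 0.06 FPKM, with no overlap between them. Car4, Car13, and Car9 were the lowest in control, at 0.439 ± 0.148, 0.312 ± 0.355, and 0.233 ± 0.220 FPKM, and neighbours among them overlapped. In OIR mice Car9 was the sixth at 1.45 ± 1.63 FPKM, but its range overlapped that of Car3, the next in order.

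**Figure D2:**
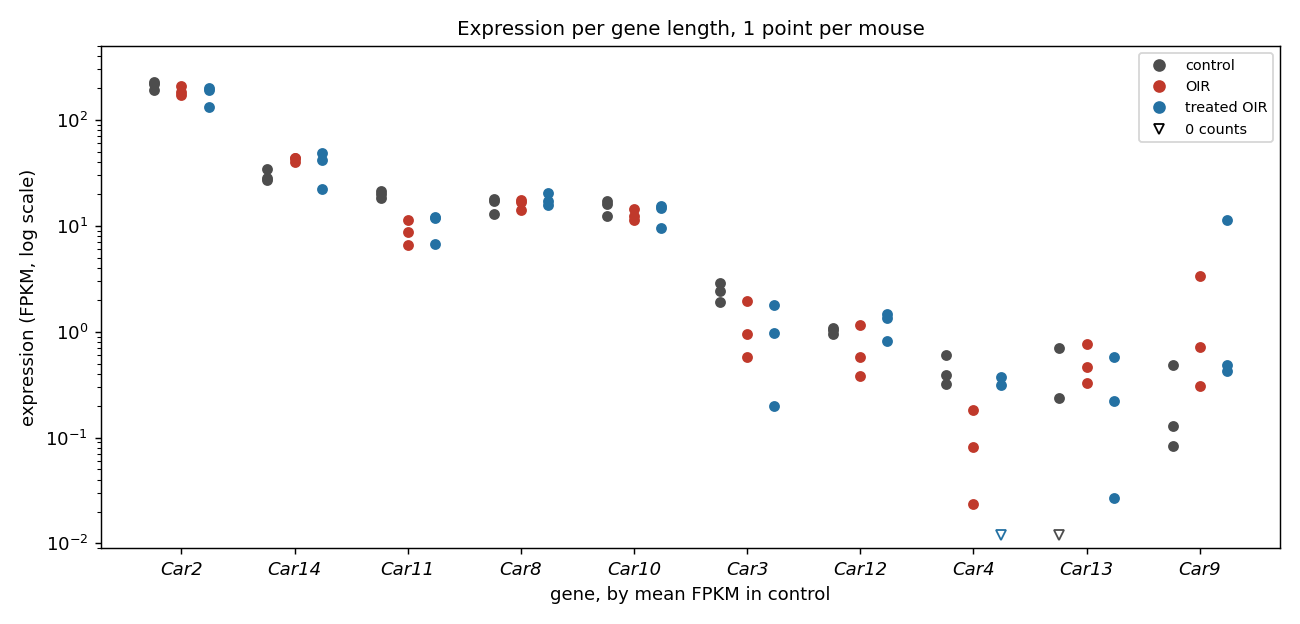
Expression per gene length of the 10 genes, as FPKM on a log axis, with 1 point per mouse and open triangles for mice with 0 counts. Car2 lay above all others in every mouse, and Car9 spanned 0.084 to 11.4 FPKM over the 9 mice.

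The surface enzymes were Car4, Car9, Car12, and Car14. Car9 (ENSMUSG00000028463, chr4:43506966-43513729 on GRCm38, plus strand) encodes the transmembrane enzyme that hypoxic cells are known to raise. In control mice 1, 6, and 7 its log2 CPM was 0.29, -1.33, and -1.76. In OIR mice 3, 5, and 6 it was 0.81, -0.32, and 2.95, and in treated OIR mice 2, 5, and 10 it was 4.72, 0.27, and 0.11. One mouse of each ischemic group was high while the other 4 ischemic mice lay from -0.32 to 0.81, beside 0.29 in the highest control mouse, so the groups overlapped. The counts behind these values were 32, 6, and 3 in control, 31, 15, and 170 in OIR, and 413, 18, and 19 in treated OIR mice.

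The log2 fold change of Car9 was 2.54 (SE 1.43) in OIR against control, with an adjusted p of 0.314 by edgeR and a 95% interval from -0.70 to 5.77. It was 4.02 (SE 1.48) in treated OIR against control, with an unadjusted p of 0.0234 and an adjusted p of 0.216 by edgeR. Without treated OIR mouse 2, the latter was 0.86, and without OIR mouse 6 the former was 1.03. In treated OIR against OIR the log2 fold change was 1.49 (SE 1.29) with all mice and -1.66 without treated OIR mouse 2, so its direction rested on that mouse. Limma-voom with sample quality weights gave -0.52 there. DESeq2 on the 2 groups alone called Car9 higher in OIR than in control, with an adjusted p of 0.0243 and a log2 fold change of 2.59, in a setting that called 6.04% of all genes.

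Car14 (ENSMUSG00000038526, chr3:95897768-95904691, minus strand) encodes a transmembrane enzyme known from Müller glia and the pigment epithelium. Its log2 CPM was 6.12, 6.15, and 6.44 in control mice 1, 6, and 7. OIR mice 3, 5, and 6 were at 6.81, 6.80, and 6.68. Treated OIR mice 2, 5, and 10 were at 5.82, 6.96, and 6.72. All OIR mice lay above all control mice, while treated OIR mouse 2 was the lowest of the 9 and the other two treated mice lay above the control mice. The log2 fold change in OIR against control was 0.52 (SE 0.24), a fold of 1.43, with an adjusted p of 0.231 by edgeR and a 95% interval from -0.03 to 1.07.

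Under 3 alternatives the adjusted p of Car14 in that comparison was below 0.05, though the log2 fold change stayed under 1. It was 0.00171 by DESeq2 on the 2 groups, 0.0252 by edgeR on the 2 groups, and 0.0182 by edgeR without treated OIR mouse 2. Treated OIR against control gave 0.34 (SE 0.24), which was 0.61 without treated OIR mouse 2 and 0.10 without treated OIR mouse 5. Limma-voom gave 0.63 there, with an adjusted p of 0.0480. Treated OIR against OIR gave -0.19 (SE 0.24), which was 0.11 without treated OIR mouse 2. Car14 shares 521 bases at its 3' end with Aph1a, a gene on the opposite strand with 946 to 1797 counts per mouse. Whether counting used strand is not given in the sources used here, so reads of both genes cannot be told apart in that stretch. The log2 fold change of Aph1a in OIR against control was 0.02 (SE 0.14).

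Beside Car14, the summed level of 8 Müller glia markers was 4865 to 6209 CPM in control, 6364 to 7259 CPM in OIR, and 4970 to 5773 CPM in treated OIR mice. Of these 8 markers, 7 had a positive log2 fold change in OIR against control. Treated OIR mice 5 and 10, whose Car14 lay above all control mice, had Müller sums of 5773 and 5068 CPM, inside the control range. Treated OIR mouse 2, the lowest of the 9 in Car14, had the lowest Müller sum of the treated mice, at 4970 CPM. The 7 pigment epithelium markers summed to 215 to 253 CPM in control, 163 to 320 CPM in OIR, and 236 to 398 CPM in treated OIR mice. Of these 7 markers, 5 had a negative log2 fold change in OIR against control. The part of either cell type in the Car14 values was not tested. In bulk retina, fewer or more cells of a type and less or more RNA per cell cannot be told apart.

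Car12 (ENSMUSG00000032373, chr9:66713686-66766845, plus strand) encodes another transmembrane enzyme of the cell surface. Values of log2 CPM were 2.89, 3.06, and 2.99 in control, 3.16, 2.16, and 1.58 in OIR, and 2.66, 3.501, and 3.35 in treated OIR mice, in the order of the mouse numbers. Control mice were close together and OIR mice were spread from 1.58 to 3.16. OIR against control gave a log2 fold change of -0.54 (SE 0.39), with an adjusted p of 0.428 by edgeR. It was -1.10 without OIR mouse 3 and -0.24 without OIR mouse 6. In treated OIR against OIR it was 0.78 (SE 0.39), with an unadjusted p of 0.0757 and an adjusted p of 0.9998 by edgeR, and a 95% interval from -0.10 to 1.66. This was the smallest unadjusted p of the 10 genes in that comparison.

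Car4 (ENSMUSG00000000805, chr11:84957786-84966044, plus strand) encodes an enzyme tethered to the outer membrane by a lipid anchor and known from capillary endothelium. It was near the limit of detection, with 18, 24, and 12 counts in control mice, 3, 1, and 8 counts in OIR mice, and 0, 12, and 12 counts in treated OIR mice. The 0 counts of treated OIR mouse 2 allow a level of up to 0.190 CPM, taken as 3 counts of its library. As log2 CPM these were -0.45, 0.37, and -0.19 in control, -1.94, -2.76, and -1.12 in OIR, and -3.31, -0.26, and -0.48 in treated OIR mice. All OIR mice lay below all control mice, and treated OIR mice 5 and 10 lay above all OIR mice. The log2 fold change in OIR against control was -2.14 (SE 0.96), with an adjusted p of 0.217 by edgeR and a 95% interval from -4.31 to 0.03. The 6 endothelial markers gave summed levels of 227 to 243 CPM in control, 339 to 437 CPM in OIR, and 283 to 412 CPM in treated OIR mice. Of these 6 markers, Kdr alone was higher in OIR than in control without overlap, beside 15.9% of all genes tested. It was also the only DEG of the 6 there, beside 0.302% of all genes. Its log2 fold change was 1.10 (SE 0.17), with an adjusted p of 0.0407 by edgeR. The other 5 markers summed to 118 to 142 CPM in control and 71.0 to 213 CPM in OIR mice. The part of endothelial cells in the Car4 values was not tested.

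Added together per length, the 4 surface enzymes were at 31.5 ± 3.55 FPKM in control, 45.0 ± 0.87 FPKM in OIR, and 43.1 ± 8.49 FPKM in treated OIR mice (SD, n = 3). The lowest OIR mouse, at 44.2 FPKM, was above the highest control mouse, at 35.6 FPKM. Car14 held most of each sum, although Car9 gave 11.4 of the 34.4 FPKM of treated OIR mouse 2. No test was run on these sums.

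The cytosolic enzymes were Car2, Car3, and Car13, whose genes lie near each other on chromosome 3. Car2 (ENSMUSG00000027562, chr3:14886273-14900770, plus strand) encodes a highly active enzyme that is abundant in Müller glia. Mice were at log2 CPM of 8.85, 9.06, and 9.10 in control, 8.997, 8.72, and 8.78 in OIR, and 8.33, 8.93, and 8.87 in treated OIR mice. The groups overlapped and treated OIR mouse 2 was the lowest. OIR against control gave a log2 fold change of -0.17 (SE 0.17), with an adjusted p of 0.591 by edgeR and a 95% interval from -0.55 to 0.22. 

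Car3 (ENSMUSG00000027559, chr3:14863512-14872523, plus strand) encodes an enzyme of low activity that is best known from skeletal muscle and fat. Its log2 CPM was 2.48, 3.06, and 2.82 in control, 1.4997, 2.50, and 0.82 in OIR, and -0.57, 1.52, and 2.38 in treated OIR mice. All treated OIR mice lay below all control mice, and OIR mouse 5 alone overlapped the control mice among the OIR mice. Fold changes on the log2 scale were -1.05 (SE 0.65) in OIR against control and -1.28 (SE 0.66) in treated OIR against control, with adjusted p values of 0.358 and 0.328 by edgeR. The latter was -0.80 without treated OIR mouse 2, which had 9 Car3 counts.

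Markers of the tissues in which Car3 is best known were low. The 7 skeletal muscle markers summed to 9.85 to 11.6 CPM in control, 8.01 to 10.5 CPM in OIR, and 7.71 to 10.5 CPM in treated OIR mice, and Myh1, Myh2, Myh4, and Tnnt3 had 0 counts in at least 1 mouse. The 4 adipocyte markers summed to at most 1.09 CPM in any mouse, and Lep had 0 counts in all 9.

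Car13 (ENSMUSG00000027555, chr3:14641727-14663002, plus strand) encodes a further cytosolic enzyme. It had 46, 11, and 0 counts in control, 14, 23, and 39 counts in OIR, and 21, 1, and 10 counts in treated OIR mice. The 0 counts of control mouse 7 allow up to 0.193 CPM. The range among control mice covered every other mouse but OIR mouse 6 on the log2 CPM scale, and the adjusted p values by edgeR were 0.746 in OIR against control and 0.922 in treated OIR against control. Together, the 3 cytosolic enzymes were at 215 ± 19.1 FPKM in control, 190 ± 19.2 FPKM in OIR, and 177 ± 37.7 FPKM in treated OIR mice, almost all of it Car2.

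The related proteins without catalytic activity were Car8, Car10, and Car11. Car11 (ENSMUSG00000003273, chr7:45699843-45704682, plus strand) encodes a secreted protein of neurons. Control mice 1, 6, and 7 had a log2 CPM of 5.35, 5.15, and 5.28. It was 4.09, 4.44, and 3.68 in OIR mice 3, 5, and 6, while treated OIR mice 2, 5, and 10 had 3.72, 4.56, and 4.52. All 6 ischemic mice lay below all 3 control mice, and OIR and treated OIR mice overlapped. The log2 fold change in OIR against control was -1.16 (SE 0.25), a fold of 0.447, with an unadjusted p of 0.00120, an adjusted p of 0.0605 by edgeR, and a 95% interval from -1.73 to -0.60.

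Of 21 alternatives, 6 called Car11 a DEG in OIR against control, all of them lower. DESeq2 gave an adjusted p of 6.32e-04 on all 9 mice and 1.05e-06 on the 2 groups. Limma-voom gave 0.0107, in a setting that called 4.69% of all genes. EdgeR gave 0.0128 on the 2 groups, 0.0326 with no filter on low counts, and 0.00572 without treated OIR mouse 2. Leaving out any other mouse gave an adjusted p of at least 0.0644 by edgeR, and the log2 fold change ranged from -1.37 to -0.99 over all 21.

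Car11 in treated OIR against control had a log2 fold change of -0.95 (SE 0.25), with an unadjusted p of 0.00406, an adjusted p of 0.140 by edgeR, and a 95% interval from -1.52 to -0.39. There the adjusted p was 0.0129 by DESeq2 on all 9 mice, 0.0218 by DESeq2 on the 2 groups, and 0.0379 by limma-voom, with log2 fold changes between -1 and 0, so Car11 was not a DEG. Against OIR mice, treated OIR mice gave 0.21 (SE 0.25), with a 95% interval from -0.36 to 0.77. Without treated OIR mouse 2, the remaining treated mice, 5 and 10, lay above all OIR mice, with a log2 fold change of 0.46 and an adjusted p of 0.351 by edgeR.

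Of the markers of inner retinal neurons, those of ganglion and amacrine cells were lower in all OIR mice than in all control mice, as Car11 was. The 6 ganglion cell markers summed to 1108 to 1599 CPM in control, 94.7 to 517 CPM in OIR, and 39.4 to 904 CPM in treated OIR mice. The 6 amacrine cell markers summed to 724 to 976 CPM in control, 230 to 449 CPM in OIR, and 191 to 736 CPM in treated OIR mice. In OIR against control all 6 markers of each list had a negative log2 fold change and no overlap between groups, and 0 were DEGs by edgeR. Over all genes tested, 17.2% were lower without overlap. At an unadjusted p below 0.05 in edgeR there were 2 of 6 ganglion cell and 4 of 6 amacrine cell markers, beside 23.8% of all genes tested. Treated OIR mouse 10, at 736 CPM, lay above control mouse 1, at 724 CPM, in the amacrine sum, though not in Car11. Other inner retinal neurons did not go this way, since the 7 bipolar cell markers summed to 836 to 946 CPM in control and 1001 to 1132 CPM in OIR mice, with 5 of 7 log2 fold changes positive. Of the 4 horizontal cell markers, 3 had a positive log2 fold change, and their sums overlapped. OIR mouse 6 and treated OIR mouse 2 had the lowest sums of both lists and the lowest Car11. The part of these cells in the Car11 values was not tested.

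**Figure D3:**
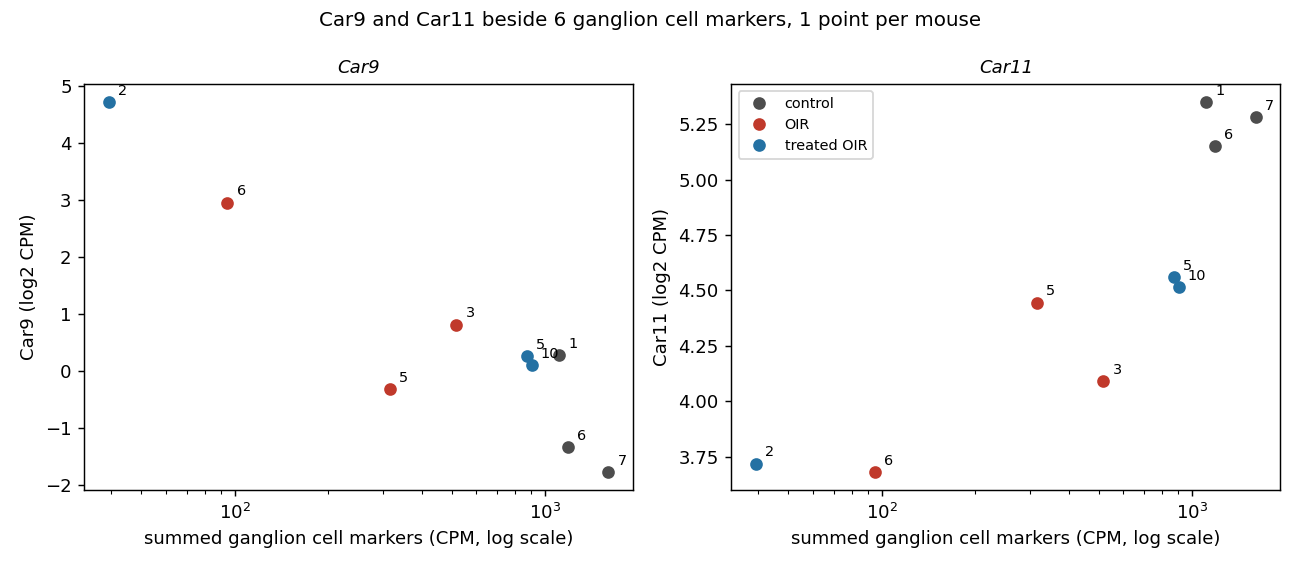
Log2 CPM of Car9 (left) and Car11 (right) against the summed CPM of 6 ganglion cell markers on a log axis, with 1 point per mouse. Treated OIR mouse 2 and OIR mouse 6 had the lowest marker sums, the highest Car9, and the lowest Car11.

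The same 2 mice, treated OIR mouse 2 and OIR mouse 6, had the highest Car9, as the plot of Car9 against ganglion cell markers shows. They also had the lowest Car3. They differed in lens RNA, which was 106256 CPM over 10 lens markers in treated OIR mouse 2 and 35.7 CPM in OIR mouse 6. Over the 9 mice, Pearson's r of log2 CPM was -0.96 between Car3 and Car9, -0.83 between Car9 and Car11, and 0.84 between Car3 and Car11. It was 0.93 between Car2 and Car10, and -0.89 between Car9 and Car10. These are descriptions over 9 mice that share group differences and the same 2 outlying mice.

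Car8 (ENSMUSG00000041261, chr4:8143362-8239041, minus strand) encodes a protein that binds the inositol trisphosphate receptor. Expression was at log2 CPM of 5.63, 6.11, and 6.06 in control, 6.01, 5.77, and 6.09 in OIR, and 6.29, 6.04, and 5.92 in treated OIR mice. The groups overlapped, and the log2 fold change in OIR against control was 0.02 (SE 0.15), with an adjusted p of 0.960 by edgeR and a 95% interval from -0.33 to 0.37. Its sign depended on the setting, as it lay between -0.12 and 0.11 over 21 alternatives.

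Car10 (ENSMUSG00000056158, chr11:93098028-93601749, plus strand) encodes a secreted partner of neurexins at synapses. Its log2 CPM was 6.30, 6.67, and 6.77 in control, 6.52, 6.31, and 6.17 in OIR, and 5.91, 6.60, and 6.55 in treated OIR mice. The groups overlapped, with treated OIR mouse 2 the lowest, and the log2 fold change in OIR against control was -0.25 (SE 0.20), with an adjusted p of 0.472 by edgeR. Per length, the 3 related proteins summed to 51.0 ± 4.27 FPKM in control, 37.8 ± 2.13 FPKM in OIR, and 41.1 ± 4.12 FPKM in treated OIR mice (SD, n = 3). All OIR and treated OIR mice, at 44.5 FPKM or less, lay below the lowest control mouse, at 46.2 FPKM. Of the 3 genes, Car11 alone was lower without overlap in both groups, while Car8 and Car10 overlapped with control. No test was run on these sums.

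Counted over the 10 genes, 1 gene (Car14) was higher in every OIR mouse than in every control mouse, and 2 (Car4 and Car11) were lower in every OIR mouse. Over all genes tested, 15.9% were higher and 17.2% lower without overlap, so 1 and 2 of 10 were near that background. Set against control, treated OIR mice gave 0 higher genes and 2 lower ones (Car3 and Car11) without overlap, beside 12.8% and 12.2% of all genes. In treated OIR against OIR, 0 were higher and 0 lower, beside 3.74% and 5.39%. Without treated OIR mouse 2, the last comparison had 4 genes higher (Car4, Car10, Car11, and Car12) and 1 lower (Car13), beside 16.1% and 17.1% of all genes. Without OIR mouse 6 as well, these were the same 5 genes, beside 19.6% and 21.4% of all genes.

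**Figure D4:**
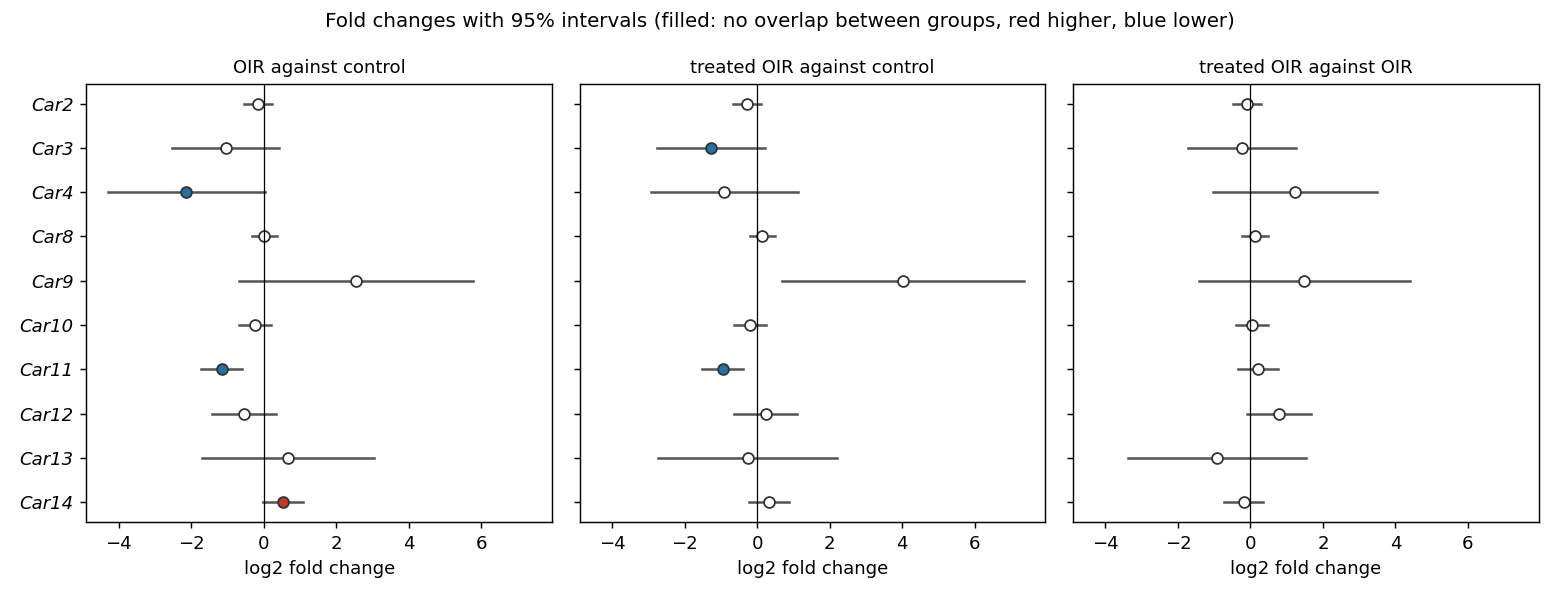
Log2 fold changes of the 10 genes in the 3 comparisons, with 95% intervals from the edgeR fit of all 9 mice. Filled points mark genes whose mice did not overlap between groups, red for higher and blue for lower. The interval of Car11 lay below 0 in both comparisons with control, and all 10 intervals of treated OIR against OIR included 0.

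**Figure D5:**
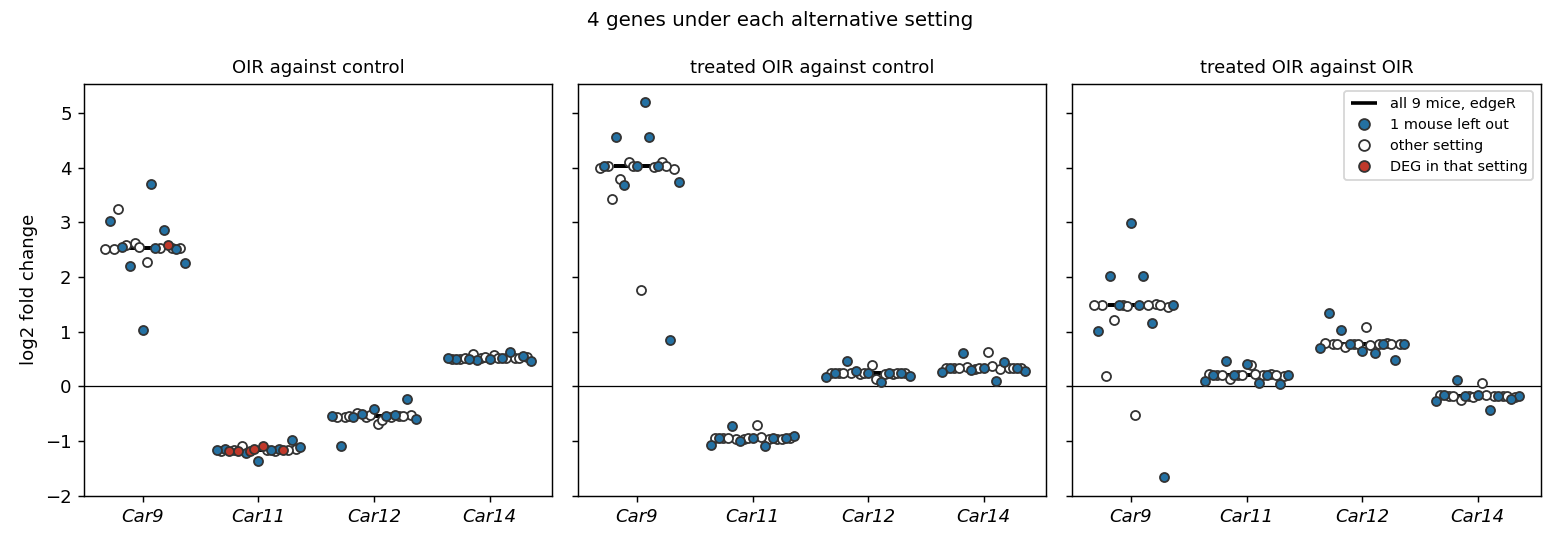
Log2 fold changes of Car9, Car11, Car12, and Car14 under each alternative, with 1 point per setting, blue for a mouse left out, white for other settings, red where the gene was a DEG, and a bar for the edgeR fit of all 9 mice. Car11 stayed between -1.37 and -0.99 in OIR against control, while Car9 went from -1.66 to 2.997 in treated OIR against OIR.

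The plot of fold changes by setting shows the contrast between Car9 and Car11. In OIR against control, Car9 ranged from 1.03 to 3.71 over 20 alternatives, and Car11 kept to a narrow range. Both values of Car9 at the ends of that range came from leaving out 1 mouse, OIR mouse 6 and control mouse 1.

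Genes whose log2 CPM followed a member most closely over the 9 mice were named for the 4 members with the largest absolute log2 fold change in OIR against control. For Car9 these were Lactb2, Racgap1, and Rflna, with Pearson's r of 0.98 each. For Car11 they were Hpdl and Tmem145, at 0.99, and Aifm3, at 0.98. For Car3 they included A230050P20Rik, at 0.98, and Slc5a5, at 0.97. For Car4 they were Csgalnact1 and Nxt2, at 0.95, and Gpr45, at 0.94. They were picked from at least 13977 genes over the same 9 mice, so high values are a description of these libraries.

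Other genes that handle acid and bicarbonate were read from the same fit. Over all genes tested, 23.8%, 18.6%, and 4.69% had an unadjusted p below 0.05 by edgeR in the 3 comparisons. Of 6 further carbonic anhydrase genes, 4 were tested and 0 were DEGs by edgeR in any comparison, and 0, 2, and 1 of them had an unadjusted p below 0.05. The largest log2 fold changes in OIR against control were 1.52 (SE 1.13) for Car6, a secreted enzyme, -0.77 (SE 0.34) for Car7, a cytosolic enzyme, and -0.60 (SE 0.39) for Car15, a surface enzyme. Of 12 bicarbonate transporters, 10 were tested and 0 were DEGs by edgeR in any comparison, with 3, 4, and 0 at an unadjusted p below 0.05. Slc4a4, the sodium bicarbonate cotransporter that Müller glia carry, had a log2 fold change of 0.62 (SE 0.23) in OIR against control, while Slc26a4 had -0.48 (SE 1.31) and Slc4a7 had 0.35 (SE 0.13). Of 9 sodium-proton exchangers, 7 were tested and 0 were DEGs by edgeR, with 1, 1, and 1 at an unadjusted p below 0.05. The largest values were -0.75 (SE 0.40) for Slc9a5, 0.66 (SE 0.30) for Slc9a9, and 0.30 (SE 0.09) for Slc9a8.

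Of 6 lactate-proton transporter genes, all were tested and 1 was a DEG by edgeR in OIR against control, beside 0.302% of all genes tested. Emb, the embigin chaperone of these transporters, had log2 CPM of 5.23, 5.38, and 5.48 in control and 4.23, 3.74, and 4.09 in OIR mice. All OIR mice lay below all control mice, beside 17.2% of all genes tested. The log2 fold change was -1.34 (SE 0.19), with an adjusted p of 0.0407 by edgeR. That call was lost in 7 of the 9 fits that left out 1 mouse. Treated OIR mice were at 5.17, 4.56, and 4.75, above all OIR mice and below all control mice. Over all genes tested, 3.74% were higher than in OIR and 12.2% lower than in control without overlap. Treated OIR against OIR gave a log2 fold change of 0.82 (SE 0.18) and an adjusted p of 0.862 by edgeR. The next largest values in OIR against control were -0.66 (SE 0.34) for Slc16a8, the transporter of the pigment epithelium, and -0.31 (SE 0.30) for Slc16a7.

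Of 12 other HIF target genes, 7 were higher in every OIR mouse than in every control mouse, beside 15.9% of all genes tested. By edgeR, 2 were DEGs in OIR against control, both higher, beside 0.302% of all genes tested. Adm, which encodes the vasoactive peptide adrenomedullin, had a log2 fold change of 2.84 (SE 0.53) and an adjusted p of 0.0496 by edgeR. Ndufa4l2, a mitochondrial protein induced by hypoxia, had 2.13 (SE 0.35) and an adjusted p of 0.0408. Egln3, a prolyl hydroxylase that acts on HIFs, had 2.44 (SE 0.90) and an adjusted p of 0.149, close in size to the 2.54 of Car9. Leaving out any 1 of 7 of the 9 mice (all but treated OIR mice 2 and 10) lost the calls of Adm, Ndufa4l2, Emb, and Kdr. Those fits gave 0 DEGs over all genes by edgeR and 2845 to 4140 genes at an unadjusted p below 0.05. With TMM scaling, the only scaling run for these lists, all 12 had a positive log2 fold change in all 3 comparisons, treated OIR against OIR included. In that last comparison 0 were DEGs by edgeR and 2 had an unadjusted p below 0.05, beside 4.69% of all genes tested. Treated OIR mouse 2 was the highest treated mouse for all 12, and the mean log2 CPM of treated OIR mice 5 and 10 alone was above the OIR mean for 7 genes and below it for 5. Ndufa4l2 had log2 CPM of 6.43, 6.22, and 6.37 in OIR, and of 7.87, 6.71, and 6.40 in treated OIR mice, with treated OIR mouse 2 the highest, as for Car9.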

How the data were processed

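Raw counts per gene were deposited by the authors in 1 table (whole numbers, not normalized, 9 mice) with positions and a gene length. The submitters' processing notes name CASAVA and HISAT with no version or role, and the counting tool and its use of strand are not given in the sources used here. Positions of all 10 genes equal those of GENCODE M21, as do 98.3% of all shared identifiers, so GRCm38 is used.

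Counts were tested with edgeR 4.0.16 in R 4.3.3 (TMM, the default filter by group, all 9 mice, 1 mean per group), adjusted over 17540 genes. Log2 CPM used a prior count of 2, and FPKM used the deposited lengths and TMM library sizes. Alternatives were DESeq2 1.42.0 and limma 3.58.1 (voom with quality weights), other scalings, filters, and thresholds, sex as a covariate, and leaving out each mouse. Simulated counts with known changes were used to test the fits. They had the same spread for all genes and no outlying library, and low genes were not changed. They therefore do not cover a library like treated OIR mouse 2 or changes in low genes such as Car4. The members, the lists, and the tests were chosen with earlier results of these data known. Named were all 10 members and, from each pathway list, each DEG and the 3 largest log2 fold changes in OIR against control. Of the genes of like pattern, 1 is not reported here. The precision is set by 3 mice per group, and limits from 0 counts cover counting error only. Plots were made with matplotlib 3.10.9 in Python 3.11.15 (pandas 2.3.3).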

Additional observations from a re-analysis of the deposited data

How the results depend on the processing

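The count of the 10 genes called DEGs in OIR against control was 0 with edgeR on all 9 mice and 1 by DESeq2 on all 9 mice, edgeR on the 2 groups compared, limma-voom, and edgeR with no filter, each time Car11. It was 2 by DESeq2 on the 2 groups compared (Car9 and Car11), and 0 to 1 when 1 mouse was left out, with 1 only without treated OIR mouse 2. It was 0 in the other 2 comparisons under every alternative run. Over all genes, 53 were DEGs in OIR against control with edgeR on all 9 mice, 671 by DESeq2 on all 9 mice, 996 by DESeq2 and 771 by edgeR on the 2 groups, 822 by limma-voom, 260 with no filter, 107 with at least 10 counts in every mouse, 165 by adjusted p alone, 14 with total counts alone, and 0 with sex as a covariate, where 3775 had an unadjusted p below 0.05. It was 901 without treated OIR mouse 2, 98 without treated OIR mouse 10, and 0 without each of the other 7 mice.

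The log2 fold changes that changed sign were all from values that did not pass the test. Limma-voom turned Car8 to -0.082 in OIR against control and to -0.0037 in treated OIR against control, and Car2, Car9, and Car14 to 0.037, -0.52, and 0.057 in treated OIR against OIR. Total counts alone turned Car10 to -0.024 in treated OIR against OIR, and TMM without crystallin genes turned Car8 to -9.93e-05 in OIR against control. With 1 mouse left out, Car8 ranged from -0.12 to 0.11 in OIR against control and Car13 from -1.34 to 1.11 in treated OIR against control. In treated OIR against OIR, Car2 then ranged from -0.22 to 0.088, Car3 from -0.99 to 0.37, Car9 from -1.66 to 2.997, Car10 from -0.077 to 0.26, and Car14 from -0.43 to 0.11. The cause of these changes was not tested.

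On the 2 groups, DESeq2 gave no adjusted p to some genes, Car9 in both comparisons of treated OIR mice among them. In treated OIR against OIR it did give one to Car13, whose mean level was lower than that of Car9 in both groups. Why Car9 had none was not examined. The counts of genes without overlap that leave out treated OIR mouse 2, alone or with OIR mouse 6, were chosen after seeing the data. No paired analysis was run, because no label pairs mice of different groups. The spread of Car9 among mice was larger than that of the other members in each ischemic group.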
